A study of Homo sapiens with 8 samples.

Results

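The genes described here are the matrix metalloproteinases (MMPs), the ADAM and ADAMTS metalloproteinases, and the tissue inhibitors of metalloproteinases (TIMPs), in mesenchymal stromal cells before and after freezing. Gene identifiers of the form MMP, ADAM or ADAMTS followed by a number, and TIMP1 to TIMP4, were taken where their counts summed to 100 or more over the 8 libraries. Of 67 such identifiers, 44 met this minimum, out of 23354 genes in the table: 11 MMP, 13 ADAM, 16 ADAMTS and 4 TIMP genes. The lowest gene inside the minimum was TIMP4 with 268 counts in all, and the highest one outside it was ADAMTS20 with 60. Of the 23 left out, 10 had 0 counts in every library, which allows up to 0.0733 CPM (counts relative to library size, scaled by the TMM method so that most genes match between libraries) of each in any library at a limit of 3 counts.

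The cells, labelled H9-iMSC, were mesenchymal stromal cells made from the human embryonic stem cell line H9, so every value comes from 1 line. RNA sequencing was done on 8 libraries, each of a different condition. The 3 fresh libraries were cells at 0 h, cells held 1 h in medium and cells held 1 h in DMSO, the common penetrating cryoprotectant. DMSO-frozen cells were held 0 h or 1 h in DMSO and cooled at 1 °C per minute. Osmolyte-frozen cells were held in 1 of 3 experimental solutions, SGC or SGI for 1 h or SMC for 2 h, and cooled at 3 °C per minute. What these 3 solutions contained is not given in the sources used here. All cells were grown in serum-containing medium on gelatin-coated flasks, and frozen cells were thawed in a warm bath before RNA was isolated. Solution and cooling rate went together, so they cannot be told apart. No unfrozen cells were held in SGC, SGI or SMC, so freezing and exposure to those solutions cannot be told apart either. Only 1 of the 3 fresh libraries had met DMSO. Nothing in the labels says that the libraries, 1 per condition, were grown as separate cultures. Each p-value is thus set against the spread of unlike libraries within a group, part of which may be technical.

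MMPs are zinc proteases made as inactive precursors that cut collagens and other matrix proteins. Membrane-bound members act at the cell surface, where MMP14 together with TIMP2 activates the MMP2 precursor. ADAMs are membrane proteases that release the outer parts of surface proteins, among them growth factors, cytokines and Notch, while ADAMTS enzymes are secreted and trim procollagens, proteoglycans, fibrillin and cartilage matrix proteins. TIMPs block the active sites of these enzymes, and stromal cells are a major source of both sides of this balance.

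Depth was similar throughout, with 41198716 to 51166666 counts per library. The members took 0.659% to 0.698% of all counts in fresh libraries, 0.787% and 0.828% in DMSO-frozen ones and 0.812% to 0.838% in osmolyte-frozen ones. The 95% Wilson intervals of these shares were at most 0.00776 points wide, taking each counted unit as entered 2 times, and cover counting error only. In the same order the members summed to 6590 to 7071, 7946 and 8561, and 7600 to 8479 CPM. Of this, MMP2 averaged 1833, 2631 and 2946 CPM and MMP14 717, 876 and 1108 CPM in the 3 groups. The shares thus follow the most abundant genes and do not describe each member. The median member had 17040 counts in all, against 5871 over the 15924 genes tested, and all 44 passed the filter on low counts. Of 10 stromal marker genes, the lowest value in any library was 115 CPM, for PDGFRA. Their summed level was 39770 to 42173 CPM in fresh, 40307 to 47397 in DMSO-frozen and 40946 to 53859 in osmolyte-frozen libraries, and of the 10 genes 1 was higher and 6 were lower in osmolyte-frozen than in DMSO-frozen cells. Of 10 blood markers, 8 were below 1 CPM everywhere, with HLA-DRA and MPO at 0. The blood list summed to 24.0 to 25.0 CPM in fresh, 17.0 to 17.2 in DMSO-frozen and 11.1 to 12.2 in osmolyte-frozen libraries. Of 8 pluripotency markers, 2 were below 1 CPM everywhere, and the list summed to 16.1 to 17.7, 17.8 in both, and 21.02 to 25.99 CPM in the same order. Of 6 endothelial markers, 3 were below 1 CPM everywhere, and the list summed to 35.9 to 45.2, 50.2 to 54.6, and 39.6 to 45.8 CPM. Of 7 epithelial markers, 5 were below 1 CPM everywhere, and the list summed to 2.87 to 3.82, 3.32 to 3.89, and 3.91 to 4.51 CPM. The nuclear-retained RNAs MALAT1 and NEAT1 made up 0.472% to 0.567% of counts in fresh, 0.393% and 0.452% in DMSO-frozen and 0.846% to 0.948% in osmolyte-frozen libraries, with intervals at most 0.00818 points wide. The part of these markers and RNAs in the results was not tested.

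Osmolyte-frozen cells differed from DMSO-frozen cells in 28 of the 44 members, 14 higher and 14 lower, which is 63.6% of them (edgeR quasi-likelihood test, Benjamini-Hochberg adjusted p below 0.05 over all genes tested). Over all genes tested, 29.3% differed, 13.1% higher and 16.2% lower, so that 44.8% of the genes called were higher, a share that was 56.4% with library totals alone in place of TMM scaling. The change passed and was at least 2-fold for 6 members, against 3.17% of all genes. The median absolute log2 fold change was 0.43 over the members and 0.26 over all genes, while the signed medians were 0.14 and 0.04. The 2 groups did not overlap, with every osmolyte-frozen library above both DMSO-frozen ones, for 18 members (28.7% of all genes), and with every one below for 16 (27.5%). The families divided differently by direction: 5 MMPs were higher and 1 lower, 2 ADAMs higher and 6 lower, 6 ADAMTS genes higher and 6 lower, and 1 TIMP higher and 1 lower. Whether the families differed from each other was not tested. Without the frozen 0 h DMSO library 18 members passed, 8 higher and 10 lower. In bulk RNA, fewer cells of a type and less RNA per cell cannot be told apart.

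Against fresh cells, osmolyte-frozen cells differed in 31 of the 44 members (70.5%), 19 higher and 12 lower, while 39.4% of all genes differed, 18.6% higher and 20.7% lower. Changes that passed and were at least 2-fold were found for 8 members and 6% of all genes. Groups were apart upward for 21 members (24.5% of all genes) and downward for 13 (24.6%). DMSO-frozen cells differed from fresh cells in 6 members (13.6%), all higher, where 1.82% of all genes differed, 1.22% higher and 0.603% lower. These were 1.55-fold for ADAM33, 1.47-fold for ADAMTS18, 1.44-fold for MMP2, 1.42-fold for MMP11, 1.39-fold for ADAMTS14 and 1.31-fold for TIMP2. No member passed with at least a 2-fold change there, against 0.264% of all genes. ADAMTS8 was 2.06-fold higher there but did not pass (edgeR adjusted p = 0.177). Groups were apart upward for 25 members (15.9% of all genes) and downward for 7 (15.4%). An unadjusted p below 0.05 by edgeR was found for 23 members and for 2031 of the 15924 genes tested. The calls in that comparison depended on the frozen 1 h DMSO library, without which the group holds 1 library. By DESeq2 on all libraries 10 members passed, beside 494 of all genes. With library totals alone 6 members were higher and 1 was lower. The 3 comparisons share libraries, so each is given with its own values.

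**Figure D1:**
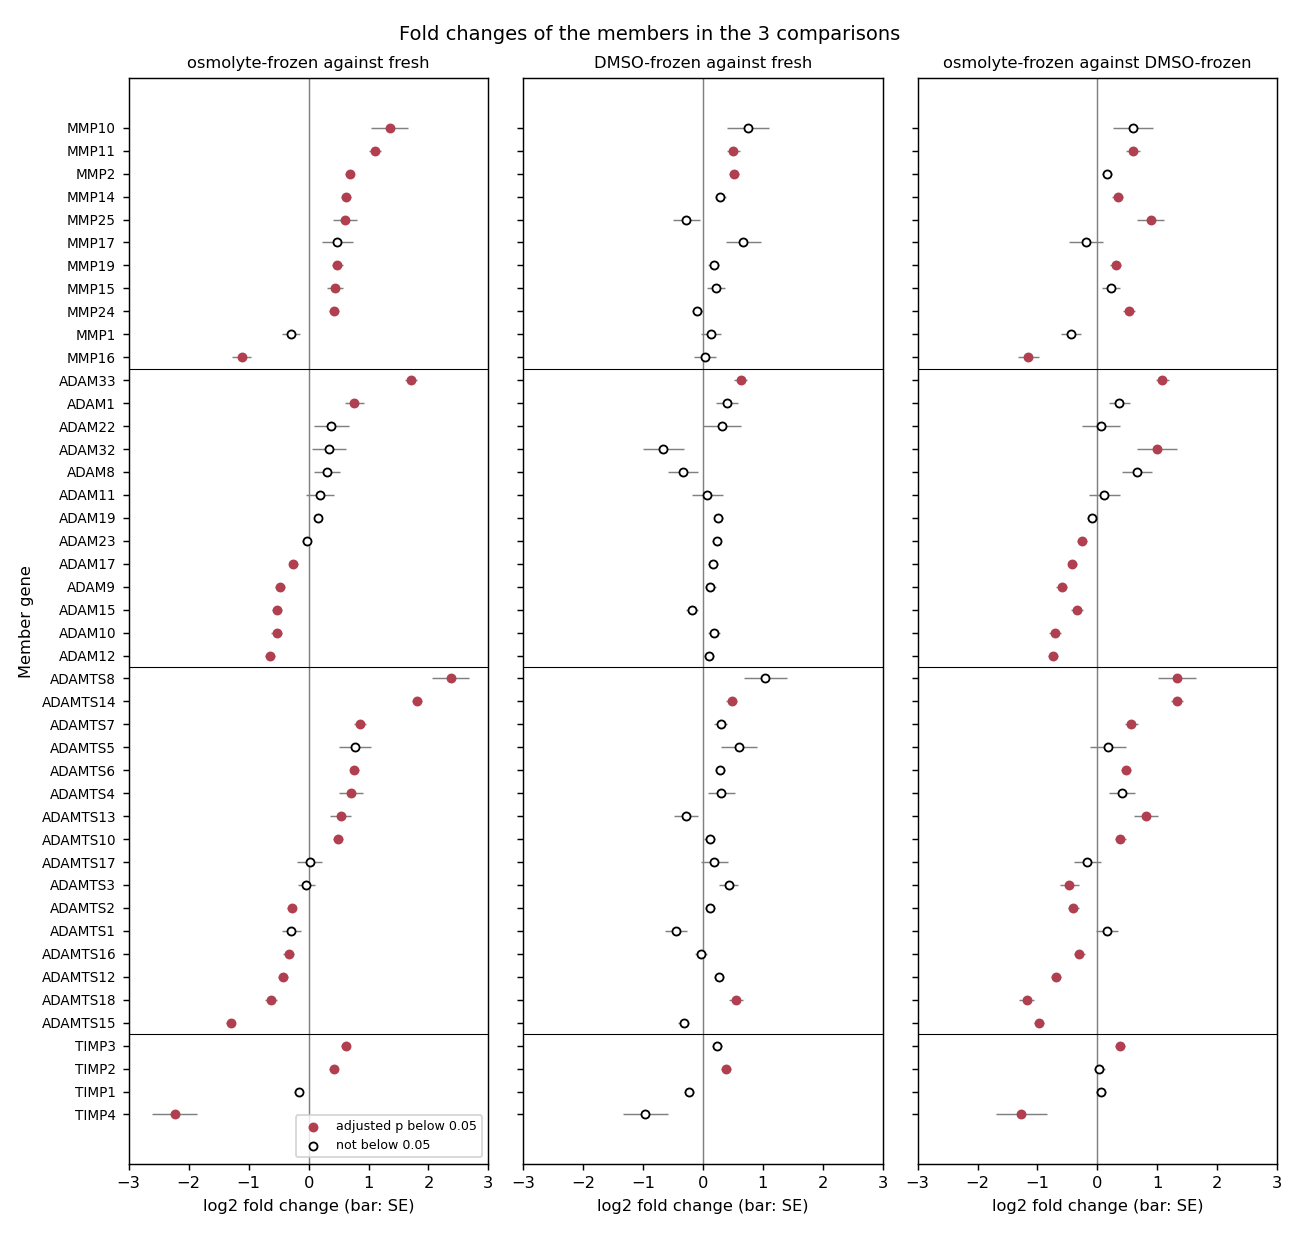
Log2 fold changes of the 44 members (vertical axis, by family) in the 3 comparisons, one panel each, with standard errors as bars; filled points passed the adjusted p of 0.05 by edgeR. The panels with osmolyte-frozen cells hold 31 and 28 filled points on both sides of 0, and the middle panel holds 6, all to the right.

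In 11 members (25%) every fresh library lay below both DMSO-frozen libraries and these below every osmolyte-frozen one, an order that 5.05% of all genes showed. They were MMP11, MMP14, MMP15, MMP19, ADAM1, ADAM33, ADAMTS6, ADAMTS7, ADAMTS8, ADAMTS14 and TIMP3. The opposite order was found for ADAM15, ADAMTS15 and TIMP4, which is 6.82% of the members against 4.77% of all genes.

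**Figure D2:**
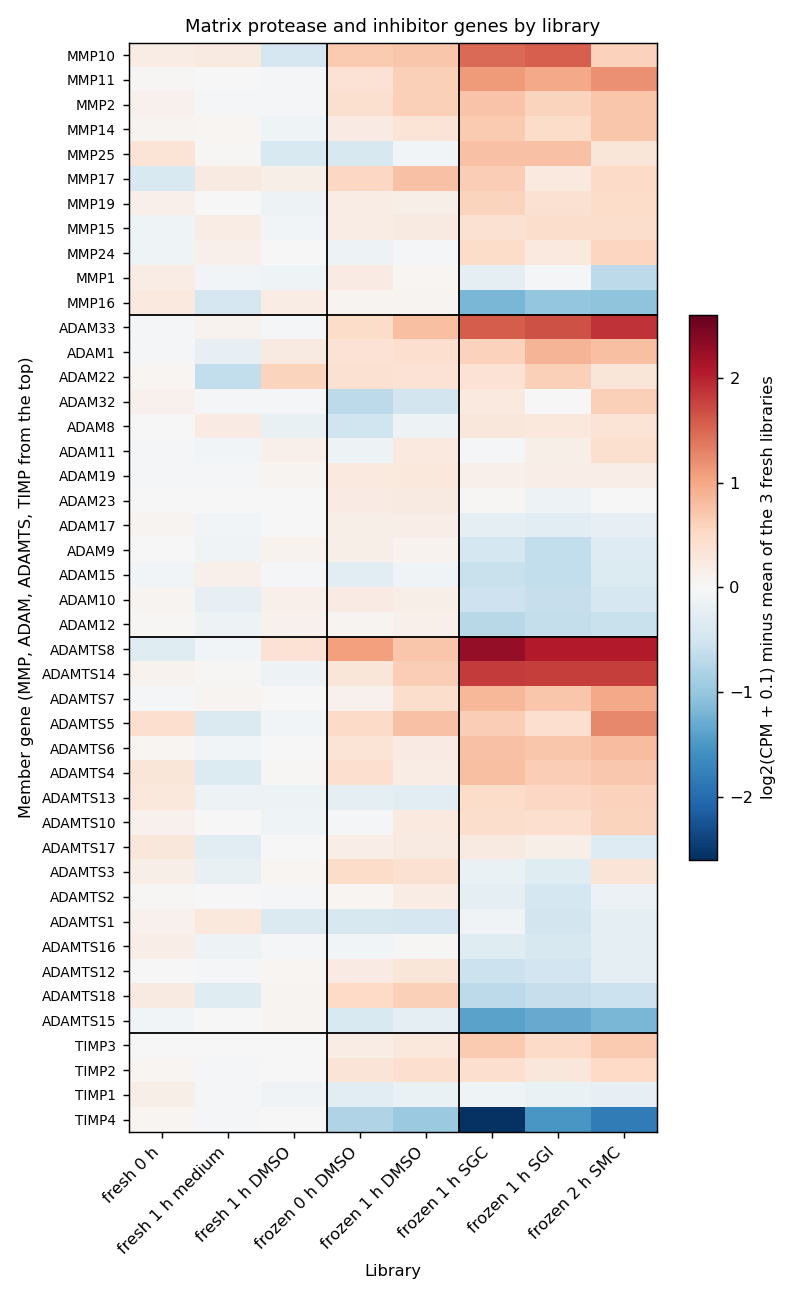
Level of each member (rows, by family) in each library (columns, with lines between the 3 groups) as log2(CPM + 0.1) minus the mean of the 3 fresh libraries; red is above and blue below fresh. ADAMTS8, ADAMTS14 and ADAM33 are the reddest rows in the 3 osmolyte-frozen columns, and TIMP4, ADAMTS15 and MMP16 the bluest.

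Among the MMPs, MMP2 (gelatinase A, which digests denatured collagen and basement membrane collagen; chromosome 16, 55513081 to 55540586 in hg19) had the highest level per kilobase of any member. In this and the following accounts, 3 fresh values stand for 0 h, 1 h in medium and 1 h in DMSO, 2 DMSO-frozen values for 0 h and 1 h, and 3 osmolyte-frozen values for SGC, SGI and SMC. MMP2 read 1967, 1769 and 1763 CPM in fresh cells, 2446 and 2816 after freezing in DMSO and 3078, 2749.9 and 3011 after freezing in osmolytes. Both frozen groups lay above all fresh libraries and overlapped each other. Its level was 1.61-fold higher in osmolyte-frozen than in fresh cells (log2 fold change 0.68 ± 0.08 SE, adjusted p = 1.86e-06), 1.44-fold higher in cells frozen in DMSO (log2 fold change 0.52 ± 0.09 SE, adjusted p = 0.00227), and 1.12-fold apart between the frozen groups (log2 fold change 0.16 ± 0.09 SE, adjusted p = 0.174). Per kilobase of the gene length listed in the table, MMP2 made up 61.6% to 63.4% of the summed MMP level in fresh, 66.0% and 67.8% in DMSO-frozen and 65.9% to 66.3% in osmolyte-frozen libraries.

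MMP14, the membrane-anchored collagenase that activates MMP2 (chromosome 14, 23305793 to 23316803), read 751, 741 and 661 CPM in fresh, 831 and 920.3 in DMSO-frozen and 1148, 997 and 1181 in osmolyte-frozen cells. The 3 groups were fully apart, with DMSO-frozen cells in the middle. It was 1.55-fold higher in osmolyte-frozen than fresh cells (log2 fold change 0.63 ± 0.08 SE, adjusted p = 7.56e-06) and 1.27-fold higher than in DMSO-frozen cells (log2 fold change 0.34 ± 0.09 SE, adjusted p = 0.00942), and its excess in DMSO-frozen over fresh cells did not pass (log2 fold change 0.29 ± 0.09 SE, adjusted p = 0.137).

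MMP11, a stromelysin that furin activates inside the cell (chromosome 22, 24115036 to 24126503), read 9.13, 9.03 and 8.74 CPM in fresh, 11.6 and 13.9 in DMSO-frozen and 19.4, 17.9 and 20.6 in osmolyte-frozen cells, again without overlap. It passed in all 3 comparisons: 2.15-fold for osmolyte-frozen over fresh (log2 fold change 1.10 ± 0.10 SE, adjusted p = 1.13e-07), 1.51-fold for osmolyte-frozen over DMSO-frozen (log2 fold change 0.60 ± 0.11 SE, adjusted p = 6.96e-04) and 1.42-fold for DMSO-frozen over fresh (log2 fold change 0.51 ± 0.11 SE, adjusted p = 0.0216). FURIN itself, measured outside the members, was 1.26-fold lower in osmolyte-frozen than in DMSO-frozen cells.

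Of the other membrane-type MMPs, MMP16 moved against the family. MMP16, held in the membrane by a transmembrane segment like MMP14, read 72.4, 44.7 and 69.3 CPM in fresh, 63.6 and 63.8 in DMSO-frozen and 26.5, 30.1 and 29.4 in osmolyte-frozen cells. All osmolyte-frozen libraries were below the lowest of the others, the fresh 1 h medium library. It was 2.22-fold lower than in DMSO-frozen cells (log2 fold change -1.15 ± 0.18 SE, adjusted p = 0.00177) and 2.17-fold lower than in fresh cells (log2 fold change -1.12 ± 0.16 SE, adjusted p = 7.50e-04). MMP24, another transmembrane member, read 33.8, 40.1 and 36.6, then 33.6 and 35.5, then 51.1, 43.6 and 54.1 CPM in fresh, DMSO-frozen and osmolyte-frozen libraries. The last group lay above all the others, 1.43-fold over DMSO-frozen (log2 fold change 0.52 ± 0.10 SE, adjusted p = 7.66e-04) and 1.35-fold over fresh cells. MMP25, anchored by a lipid tail, read 4.21, 3.35 and 2.46 CPM in fresh, 2.41 and 3.10 in DMSO-frozen and 5.58, 5.64 and 4.06 in osmolyte-frozen libraries. It was 1.85-fold higher in osmolyte-frozen than in DMSO-frozen cells (log2 fold change 0.89 ± 0.22 SE, adjusted p = 0.00625) and 1.53-fold higher than in fresh cells. Its SMC library overlapped the fresh ones. MMP15 was 1.35-fold higher in osmolyte-frozen than fresh cells (log2 fold change 0.43 ± 0.13 SE, adjusted p = 0.0150), and MMP17 at 0.716 to 1.71 CPM passed in no comparison.

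MMP19, a secreted MMP that acts on basement membrane, read 26.2, 24.0 and 21.8 CPM in fresh, 27.5 and 26.8 in DMSO-frozen and 35.6, 31.5 and 33.4 in osmolyte-frozen cells, 1.23-fold higher in the last than in DMSO-frozen cells (log2 fold change 0.30 ± 0.10 SE, adjusted p = 0.0230). Its level was 1.40-fold higher in osmolyte-frozen than in fresh cells. MMP19 overlaps TMEM198B in genomic span. Exons were not compared and the strand setting of the counting is not given, so whether they share reads cannot be told. MMP1, the interstitial collagenase that opens the collagen triple helix (chromosome 11, 102660641 to 102668966), did not pass in any comparison. It read 118, 97.4 and 95.04 CPM in fresh, 120.0 and 107 in DMSO-frozen and 88.0, 99.3 and 64.5 in osmolyte-frozen cells, lowest in SMC, and differed by log2 fold change -0.43 ± 0.17 SE, adjusted p = 0.0814 between the frozen groups. MMP10, a stromelysin whose gene lies 9.3 kb from MMP1 (chromosome 11, 102641233 to 102651359), read 0.761, 0.777 and 0.455, 1.11 and 1.14 and 1.96, 2.08 and 1.03 CPM in the same groups. MMP10 was 2.55-fold higher in osmolyte-frozen than fresh cells (log2 fold change 1.35 ± 0.31 SE, adjusted p = 0.00205), with SMC below both DMSO-frozen libraries, and its few counts leave that fold wide. MMP3, the stromelysin between MMP1 and MMP12 on chromosome 11, was no member: it had 40 counts in all, at 0.0448, 0 and 0.0455 CPM in fresh, 0.276 and 0.262 in DMSO-frozen and 0.0446, 0.130 and 0.0488 in osmolyte-frozen libraries.

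**Figure D3:**
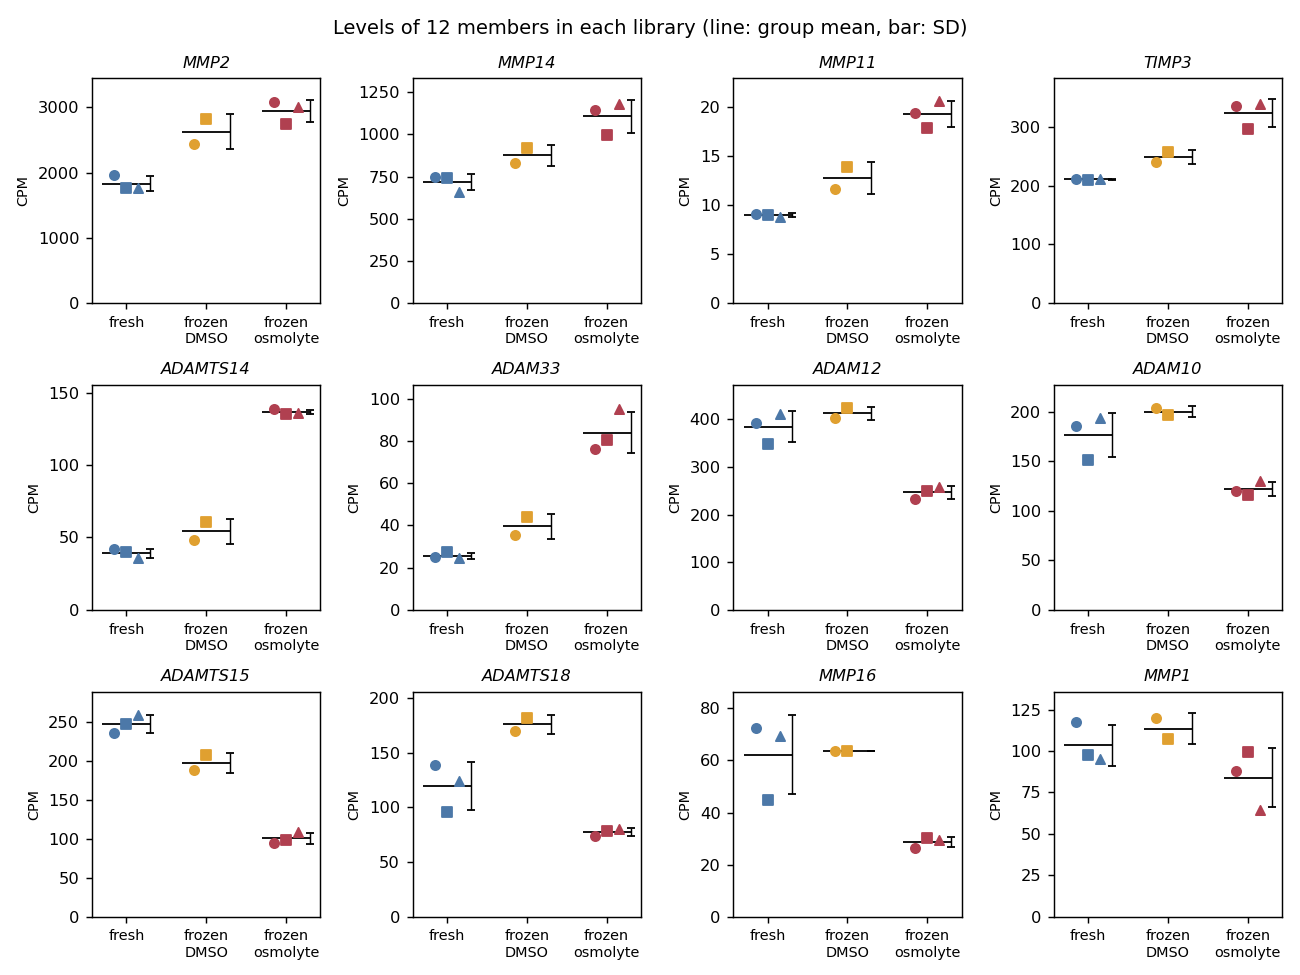
CPM of 12 members in each library, one panel per gene with its axis from 0; lines are group means and bars SDs. Circles, squares and triangles are 0 h, 1 h medium and 1 h DMSO for fresh, 0 h and 1 h for DMSO-frozen, and SGC, SGI and SMC for osmolyte-frozen cells. ADAMTS14 and ADAM33 sit highest, and ADAM12, ADAM10, ADAMTS15, ADAMTS18 and MMP16 lowest, in all 3 osmolyte-frozen libraries.

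The ADAM genes with general sheddase activity were lower in osmolyte-frozen cells than in both other groups. ADAM10 (chromosome 15, 58888510 to 59042177), which releases the ectodomains of Notch and cadherins, read 186, 151 and 194 CPM in fresh, 204 and 197 in DMSO-frozen and 121, 116 and 130.2 in osmolyte-frozen cells. All 3 osmolyte-frozen libraries lay below the lowest fresh library. The level was 1.64-fold lower than in DMSO-frozen cells (log2 fold change -0.71 ± 0.10 SE, adjusted p = 3.08e-05) and 1.45-fold lower than in fresh cells (log2 fold change -0.53 ± 0.09 SE, adjusted p = 9.50e-05). ADAM17 (chromosome 2, 9629411 to 9695917), which frees tumour necrosis factor and several ligands of the epidermal growth factor receptor, read 58.7, 53.1 and 56.3 CPM in fresh, 62.2 and 63.5 in DMSO-frozen and 46.9, 45.8 and 48.2 in osmolyte-frozen cells. The osmolyte-frozen values were again below all others, 1.34-fold under DMSO-frozen (log2 fold change -0.42 ± 0.08 SE, adjusted p = 6.35e-04) and 1.19-fold under fresh cells (log2 fold change -0.26 ± 0.07 SE, adjusted p = 0.00781). TSPAN5, one of several tetraspanins that escort ADAM10 to the surface, was 1.42-fold lower in osmolyte-frozen than in DMSO-frozen cells. Values of the other such tetraspanins are not given, so this gene does not describe the set.

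ADAM12 and ADAM9 shared this direction. ADAM12 (chromosome 10, 127702902 to 128077127), a protease of mesenchymal cells that cleaves insulin-like growth factor binding proteins, read 393, 349 and 412 CPM in fresh, 403 and 423 in DMSO-frozen and 232, 249.6 and 258 in osmolyte-frozen cells. No osmolyte-frozen library reached the lowest of the others, and the level was 1.67-fold below DMSO-frozen cells (log2 fold change -0.74 ± 0.09 SE, adjusted p = 5.57e-06) and 1.56-fold below fresh cells (log2 fold change -0.64 ± 0.08 SE, adjusted p = 3.39e-06). ADAM9, a widely expressed membrane protease, read 839.9, 793 and 900.0 CPM in fresh, 938 and 900.2 in DMSO-frozen and 616, 539 and 666 in osmolyte-frozen cells. It stood 1.51-fold below DMSO-frozen (log2 fold change -0.60 ± 0.09 SE, adjusted p = 9.10e-05) and 1.39-fold below fresh cells. ADAM15, which carries an integrin-binding motif, read 101, 117 and 102, 87.4 and 99.96 and 71.1, 67.6 and 82.6 CPM in fresh, DMSO-frozen and osmolyte-frozen libraries. It fell 1.44-fold from fresh to osmolyte-frozen cells (log2 fold change -0.53 ± 0.09 SE, adjusted p = 1.12e-04), and its 1.27-fold difference from DMSO-frozen cells (log2 fold change -0.34 ± 0.10 SE, adjusted p = 0.0122) was smaller. ADAM23, which lacks an active protease, was 1.197-fold lower than in DMSO-frozen cells (log2 fold change -0.26 ± 0.08 SE, adjusted p = 0.0190) and 1.02-fold apart from fresh cells, which did not pass.

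Among the ADAMs, 3 were higher in osmolyte-frozen cells than in 1 or both other groups. ADAM33, a mesenchymal ADAM known from genetic studies of asthma (chromosome 20, 3648620 to 3662738), read 25.0, 27.2 and 24.6 CPM in fresh, 35.5 and 43.8 in DMSO-frozen and 76.1, 80.5 and 94.9 in osmolyte-frozen cells. The groups did not overlap, and it passed in each comparison: 3.28-fold for osmolyte-frozen over fresh (log2 fold change 1.71 ± 0.10 SE, adjusted p = 3.19e-10), 2.12-fold for osmolyte-frozen over DMSO-frozen (log2 fold change 1.08 ± 0.11 SE, adjusted p = 1.60e-06) and 1.55-fold for DMSO-frozen over fresh (log2 fold change 0.63 ± 0.11 SE, adjusted p = 0.00254). ADAM1, a pseudogene in human, was 1.70-fold higher in osmolyte-frozen than fresh cells at 2.48 to 5.38 CPM. ADAM32, a gene mainly of testis that lies 2.3 kb from ADAM9, was 2.00-fold higher in osmolyte-frozen than DMSO-frozen cells (log2 fold change 1.00 ± 0.33 SE, adjusted p = 0.0302) at 0.553 to 1.52 CPM, opposite to its neighbour. ADAM8, ADAM11, ADAM19 and ADAM22 passed in no comparison. ADAM19, which sheds neuregulins, stood at 348 to 429 CPM.

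The procollagen N-proteinases ADAMTS2, ADAMTS3 and ADAMTS14, which remove the amino-terminal propeptides of fibrillar collagens, did not share a direction. ADAMTS14 (chromosome 10, 72432559 to 72522195) read 41.7, 39.7 and 35.8 CPM in fresh, 48.3 and 60.5 in DMSO-frozen and 138, 136 and 136 in osmolyte-frozen cells. The osmolyte-frozen mean of 137 ± 1.53 CPM (SD, n = 3) was far above those of 39.1 ± 3.03 (SD, n = 3) in fresh and 54.4 ± 8.59 (SD, n = 2) in DMSO-frozen cells. It was 3.50-fold over fresh (log2 fold change 1.81 ± 0.09 SE, adjusted p = 1.93e-11), 2.51-fold over DMSO-frozen (log2 fold change 1.33 ± 0.10 SE, adjusted p = 4.13e-08), and 1.39-fold higher in DMSO-frozen than fresh cells (log2 fold change 0.48 ± 0.09 SE, adjusted p = 0.00901). ADAMTS2 (chromosome 5, 178537852 to 178772431) read 119.5, 118 and 114 CPM in fresh, 121 and 134 in DMSO-frozen and 98.8, 86.0 and 105 in osmolyte-frozen cells, 1.32-fold lower in the last than in DMSO-frozen cells (log2 fold change -0.40 ± 0.09 SE, adjusted p = 0.00248). All osmolyte-frozen values were below all others, and ADAMTS2 was 1.22-fold lower in osmolyte-frozen than in fresh cells. ADAMTS3 was 1.38-fold lower than in DMSO-frozen cells (log2 fold change -0.47 ± 0.16 SE, adjusted p = 0.0429), with SMC at 18.7 CPM near the DMSO-frozen 20.8 and 19.5. It did not pass against fresh cells (log2 fold change -0.04 ± 0.15 SE, edgeR adjusted p = 0.870). Its means were 14.9 CPM in fresh, 20.2 in DMSO-frozen and 14.6 in osmolyte-frozen cells. Per kilobase, the ADAMTS14 level rose from below that of ADAMTS2 in fresh cells, 7.42 against 16.6 CPM per kb, to above it in osmolyte-frozen cells, 25.96 against 13.7. BMP1, which removes the carboxy-terminal propeptides and is no member, was 1.57-fold higher in osmolyte-frozen than DMSO-frozen cells.

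The proteoglycan-cleaving ADAMTS genes did not share a direction either. ADAMTS15 (chromosome 11, 130318869 to 130346539), which cuts versican, read 236, 247 and 258 CPM in fresh, 188 and 207 in DMSO-frozen and 94.2, 98.8 and 108 in osmolyte-frozen cells. The 3 groups were apart, with DMSO-frozen cells in the middle and osmolyte-frozen cells 2.46-fold below fresh (log2 fold change -1.30 ± 0.08 SE, adjusted p = 3.31e-10) and 1.97-fold below DMSO-frozen cells (log2 fold change -0.98 ± 0.09 SE, adjusted p = 2.21e-07). ADAMTS8 (chromosome 11, 130274818 to 130298539), its neighbour 20.3 kb away, read 0.269, 0.340 and 0.501, 0.869 and 0.656 and 2.14, 1.82 and 1.81 CPM in the same groups. It was 5.17-fold above fresh (log2 fold change 2.37 ± 0.31 SE, adjusted p = 6.77e-06) and 2.51-fold above DMSO-frozen cells (log2 fold change 1.33 ± 0.32 SE, adjusted p = 0.00409), the largest rise among the members against fresh cells and the reverse of ADAMTS15. ADAMTS4 was 1.64-fold higher in osmolyte-frozen than fresh cells (log2 fold change 0.72 ± 0.20 SE, adjusted p = 0.00816) at 1.41 to 3.21 CPM. ADAMTS1 and ADAMTS5, 72.5 kb apart on chromosome 21, passed in no comparison. ADAMTS1 varied among fresh libraries, 146, 165 and 105 CPM, and read 102 and 100.01 in DMSO-frozen and 129, 97.6 and 114 in osmolyte-frozen libraries.

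ADAMTS7 and ADAMTS12, related enzymes that cut cartilage oligomeric matrix protein, also parted. ADAMTS7 (chromosome 15, 79051545 to 79103773) read 24.2, 26.5 and 24.8 CPM in fresh, 27.2 and 34.5 in DMSO-frozen and 45.6, 41.4 and 49.8 in osmolyte-frozen cells, 1.48-fold above DMSO-frozen (log2 fold change 0.56 ± 0.11 SE, adjusted p = 6.68e-04) and 1.81-fold above fresh cells. ADAMTS12 (chromosome 5, 33527287 to 33892124) read 158, 153 and 164, 185 and 196 and 108, 112 and 134 CPM, 1.61-fold below DMSO-frozen (log2 fold change -0.69 ± 0.09 SE, adjusted p = 2.20e-05) and 1.34-fold below fresh cells. In neither gene did the osmolyte-frozen libraries overlap the others.

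ADAMTS6 and ADAMTS10, which bind or process fibrillin microfibrils, rose together in osmolyte-frozen cells. ADAMTS6 read 36.2, 33.5 and 35.5 CPM in fresh, 44.98 and 40.4 in DMSO-frozen and 59.1, 58.1 and 61.3 in osmolyte-frozen cells, 1.39-fold above DMSO-frozen (log2 fold change 0.48 ± 0.08 SE, adjusted p = 3.26e-04) and 1.70-fold above fresh cells. ADAMTS10 read 73.4, 68.1 and 62.6, 65.6 and 81.2 and 93.3, 92.4 and 101 CPM, 1.30-fold above DMSO-frozen (log2 fold change 0.38 ± 0.10 SE, adjusted p = 0.00605) and 1.41-fold above fresh cells. ADAMTS17, linked like ADAMTS10 to a fibrillin disorder, passed in no comparison at 1.81 to 2.82 CPM.

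ADAMTS18 and its close relative ADAMTS16 were both lower. ADAMTS18 (chromosome 16, 77316025 to 77469011) read 139, 95.3 and 124 CPM in fresh, 169.5 and 182 in DMSO-frozen and 73.8, 78.2 and 80.2 in osmolyte-frozen cells. Every DMSO-frozen library was above and every osmolyte-frozen library below all fresh ones, 1.47-fold higher (log2 fold change 0.56 ± 0.12 SE, adjusted p = 0.0227) and 1.54-fold lower (log2 fold change -0.63 ± 0.11 SE, adjusted p = 3.05e-04) respectively, and the frozen groups differed 2.27-fold (log2 fold change -1.18 ± 0.12 SE, adjusted p = 5.41e-06). ADAMTS16 read 53.9, 43.5 and 45.7, 44.98 and 48.4 and 38.0, 35.5 and 40.0 CPM, 1.23-fold below DMSO-frozen (log2 fold change -0.30 ± 0.09 SE, adjusted p = 0.0218) and 1.26-fold below fresh cells (log2 fold change -0.33 ± 0.09 SE, adjusted p = 0.00443). ADAMTS13, the protease of von Willebrand factor, read 3.18, 2.38 and 2.37, 2.21 and 2.14 and 3.66, 3.82 and 4.01 CPM and was 1.76-fold higher than in DMSO-frozen cells (log2 fold change 0.81 ± 0.20 SE, adjusted p = 0.00471). Its level was 1.45-fold higher in osmolyte-frozen than in fresh cells. ADAMTS13 overlaps REXO4, whose mean was 24.4 CPM against its own 2.97, so these values may hold reads of either gene.

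Of the inhibitors, TIMP1, which acts weakly on membrane-type MMPs (chromosome X, 47441690 to 47446190), passed in no comparison. It read 149, 129 and 127 CPM in fresh, 111 and 119 in DMSO-frozen and 125, 119 and 116 in osmolyte-frozen cells, with a difference of log2 fold change 0.06 ± 0.09 SE, adjusted p = 0.618 between the frozen groups. TIMP2, the partner of MMP14 in MMP2 activation (chromosome 17, 76849059 to 76921472), read 654, 608 and 630.4 CPM in fresh, 799 and 848 in DMSO-frozen and 849, 777 and 905 in osmolyte-frozen cells. Both frozen groups were above all fresh libraries, 1.34-fold for osmolyte-frozen (log2 fold change 0.42 ± 0.07 SE, adjusted p = 2.11e-04) and 1.31-fold for DMSO-frozen cells (log2 fold change 0.38 ± 0.08 SE, adjusted p = 0.0164), and they overlapped each other (log2 fold change 0.03 ± 0.08 SE, adjusted p = 0.780).

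TIMP3, the matrix-bound inhibitor that also blocks ADAM17 and several ADAMTS enzymes (chromosome 22, 33196802 to 33259028), read 211, 209.8 and 212 CPM in fresh, 241 and 257 in DMSO-frozen and 336, 297 and 338 in osmolyte-frozen cells. The groups were apart in that order, 1.53-fold from fresh to osmolyte-frozen (log2 fold change 0.62 ± 0.07 SE, adjusted p = 2.92e-06) and 1.30-fold from DMSO-frozen to osmolyte-frozen cells (log2 fold change 0.38 ± 0.08 SE, adjusted p = 0.00219). TIMP4 (chromosome 3, 12194568 to 12200851), the member with the fewest counts, read 1.34, 1.26 and 1.27, 0.711 and 0.612 and 0.134, 0.391 and 0.293 CPM. It was 4.70-fold lower in osmolyte-frozen than fresh cells (log2 fold change -2.23 ± 0.37 SE, adjusted p = 1.09e-04) and 2.41-fold lower than in DMSO-frozen cells (log2 fold change -1.27 ± 0.42 SE, adjusted p = 0.0295). The genomic spans of TIMP1, TIMP3 and TIMP4 overlap those of the synapsin genes SYN1, SYN3 and SYN2, all under 1 CPM on average. Exons were not compared and the strand setting is not given, so whether these pairs share reads cannot be told.

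Of the 28 calls against DMSO-frozen cells, 16 held in all 15 alternative fits, and none of the 28 changed direction. Without the frozen 0 h DMSO library ADAM23, ADAM32, ADAMTS3, ADAMTS10, ADAMTS16, MMP14, MMP19, MMP25, TIMP3 and TIMP4 no longer passed. Without the frozen 1 h DMSO library these were ADAM15, ADAM23, ADAM32, ADAMTS3, ADAMTS8, ADAMTS16, MMP19 and TIMP4. TIMP4, ADAMTS3, ADAM32 and MMP19 were lost without SGC, ADAM15, ADAM23, ADAMTS3 and ADAMTS16 without SGI, ADAM32 and MMP19 without SMC, and ADAMTS3 without fresh 1 h DMSO. With hold time in the fit ADAM32, ADAMTS3, ADAMTS16, MMP14 and TIMP4 did not pass, nor did TIMP4 when only the 2 groups compared were fitted or ADAM23 with library totals alone. The highest adjusted p over the alternative fits was 0.0583 for TIMP3, 0.0592 for ADAMTS8, 0.0940 for ADAM23, 0.113 for MMP25, 0.126 for MMP19, 0.155 for ADAMTS16, 0.164 for ADAM15, 0.165 for MMP14, 0.166 for TIMP4, 0.190 for ADAMTS10, 0.203 for ADAM32 and 0.245 for ADAMTS3 by edgeR. Against fresh cells 27 of 31 calls held in all 15. ADAMTS13 was lost without fresh 1 h DMSO, fresh 1 h medium or SMC (highest adjusted p 0.0823 by edgeR), MMP25 without fresh 1 h DMSO, SGC or SGI (0.101), MMP15 without fresh 0 h or fresh 1 h DMSO and with hold time in the fit (0.0752) and ADAMTS2 without SGI (0.0702). Of the 6 calls between DMSO-frozen and fresh cells none held in all 15. Besides the frozen 1 h DMSO library, without which no call was left, ADAMTS18 and TIMP2 were lost without frozen 0 h DMSO, TIMP2 and MMP11 without fresh 1 h DMSO, ADAMTS18 without SMC or SGI, and ADAMTS18 and MMP11 when only the 2 groups compared were fitted. The highest adjusted p by edgeR was 0.0998 for ADAM33, 0.115 for MMP2, 0.232 for TIMP2, 0.237 for ADAMTS18, 0.283 for ADAMTS14 and 0.323 for MMP11. None of these called members changed direction in any alternative.

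Ratios of levels per kilobase of listed length describe the balance of enzyme and inhibitor transcripts in each library, with no test. ADAM17 over TIMP3 was 0.391 to 0.429 in fresh, 0.399 and 0.382 in DMSO-frozen and 0.216 to 0.238 in osmolyte-frozen libraries. All 3 osmolyte-frozen libraries were lower than the other 5, which did not leave 0.382 to 0.429. MMP2 over TIMP2 was 2.66 to 2.86 in fresh, 2.91 and 3.16 in DMSO-frozen and 3.16 to 3.45 in osmolyte-frozen libraries. MMP14 over TIMP2 was 1.08 to 1.26, then 1.07 and 1.12, then 1.33 to 1.40. MMP1 over TIMP1 was 0.334 to 0.353, then 0.480 and 0.402, then 0.248 to 0.372, so that the osmolyte-frozen libraries spread across the fresh ones. By family sums per kilobase, MMPs stood at 724 to 816 CPM per kb in fresh, 964 and 1081 in DMSO-frozen and 1083 to 1208 in osmolyte-frozen libraries. ADAMTS genes stood at 183 to 196, 189 and 205, and 162 to 181. ADAMs stood at 415 to 460, 481 in both, and 335 to 382. TIMPs stood at 346 to 380, 385 and 409, and 397 to 436.

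**Figure D4:**
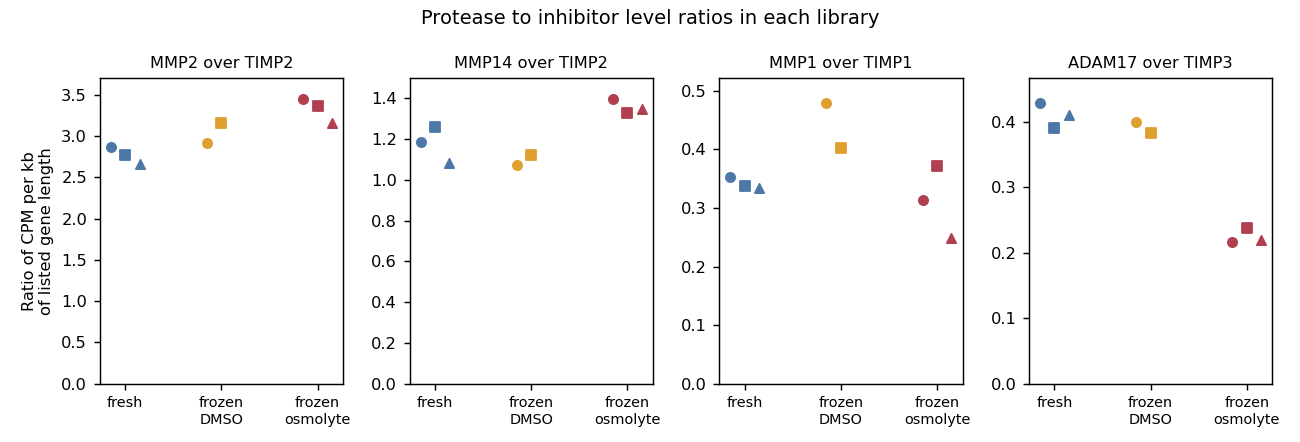
Ratios of protease to inhibitor levels, each as CPM per kb of the gene length listed in the table, in every library, with axes from 0 and symbols as in the plot of 12 members. ADAM17 over TIMP3 is at or below 0.238 in the osmolyte-frozen libraries and at or above 0.382 in the others, while MMP1 over TIMP1 spreads within the osmolyte-frozen group.

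The members lower in osmolyte-frozen cells than in either other group lay in longer genes than the members higher in the same comparison. Against DMSO-frozen cells, 10 of 14 lower members spanned over 100 kb in hg19, with a median span of 164 kb, compared with 2 of 14 higher members and a median of 37.8 kb. Over all genes tested the same direction was seen, with 29.7% of lower and 11.1% of higher genes over 100 kb. Level differed along with span: the median was 101 CPM for lower and 37.6 CPM for higher members. For all genes called it was 49.6 and 15.4 CPM. Against fresh cells, 8 of 12 lower and 1 of 19 higher members were over 100 kb, beside 23.3% and 15.2% of all genes. ADAM12, MMP16, ADAMTS12 and ADAMTS3 were among the long genes lower than in DMSO-frozen cells. The long genes ADAMTS3 and ADAM23 were lower there but did not pass against fresh cells. TIMP4, ADAM15, ADAMTS15 and ADAM17 were also lower in that comparison and spanned less than 100 kb. ADAMTS6 and ADAM32 were the long genes higher than in DMSO-frozen cells, and only ADAMTS6 of them passed against fresh cells. These shares are a description with no test, and their relation to the share of nuclear-retained RNA was not tested.

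**Figure D5:**
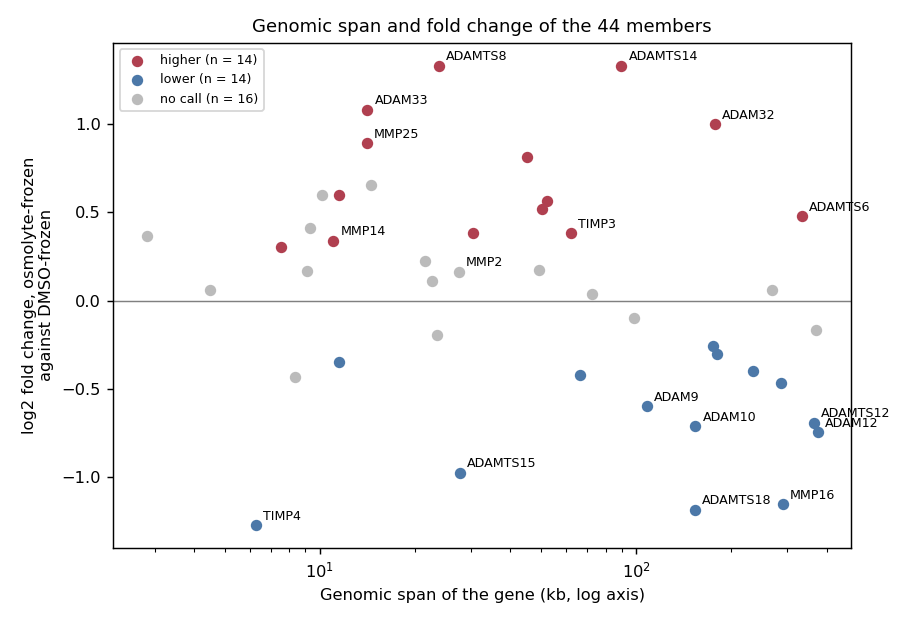
Genomic span of each member in kb (horizontal, log axis) against its log2 fold change for osmolyte-frozen over DMSO-frozen cells; red and blue points passed as higher and lower, grey did not pass. Blue points lie mostly to the right of 100 kb and red points mostly to its left, with the lower members TIMP4, ADAM15, ADAMTS15 and ADAM17 and the higher members ADAMTS6 and ADAM32 on the other side.

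RefSeq promoters of GRCh38.p14 matched 26 of the 44 members, and the 250 bases before each start were searched on both strands for 5 motifs. Members without a match, among them MMP1, MMP2, MMP16, TIMP2, ADAM33, ADAMTS8 and ADAMTS15, were not searched. Sequences are printed 5′ to 3′ on the gene's strand, in lower case with matches in capitals. They are shown as examples of opposite directions: the first 4 belong to genes that rose and the last 3 to genes that fell against fresh cells.
ADAMTS14: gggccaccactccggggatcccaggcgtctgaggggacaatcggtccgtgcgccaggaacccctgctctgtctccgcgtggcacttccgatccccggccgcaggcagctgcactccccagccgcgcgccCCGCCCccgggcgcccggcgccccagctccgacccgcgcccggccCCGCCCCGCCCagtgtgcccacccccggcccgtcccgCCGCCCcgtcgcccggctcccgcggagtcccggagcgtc
MMP11: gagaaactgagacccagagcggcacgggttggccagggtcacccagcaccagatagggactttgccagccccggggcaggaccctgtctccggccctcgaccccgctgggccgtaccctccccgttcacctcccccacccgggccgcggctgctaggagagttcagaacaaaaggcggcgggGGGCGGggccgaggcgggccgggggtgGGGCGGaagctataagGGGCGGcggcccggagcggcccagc
MMP14: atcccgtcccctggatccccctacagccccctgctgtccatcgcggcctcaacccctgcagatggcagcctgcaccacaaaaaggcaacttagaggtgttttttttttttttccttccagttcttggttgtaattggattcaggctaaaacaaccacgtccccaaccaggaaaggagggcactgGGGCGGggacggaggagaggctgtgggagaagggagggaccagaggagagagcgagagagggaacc
MMP10: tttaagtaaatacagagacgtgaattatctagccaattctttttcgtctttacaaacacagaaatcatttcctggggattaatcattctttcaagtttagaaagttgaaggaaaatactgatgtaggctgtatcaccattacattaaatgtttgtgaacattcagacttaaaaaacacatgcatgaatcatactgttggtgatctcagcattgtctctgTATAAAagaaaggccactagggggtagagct
ADAMTS18: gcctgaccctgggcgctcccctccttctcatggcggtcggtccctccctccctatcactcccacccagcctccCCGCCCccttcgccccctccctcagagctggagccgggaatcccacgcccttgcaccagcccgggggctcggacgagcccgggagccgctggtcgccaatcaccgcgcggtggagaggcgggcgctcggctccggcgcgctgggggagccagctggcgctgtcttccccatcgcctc
ADAM12: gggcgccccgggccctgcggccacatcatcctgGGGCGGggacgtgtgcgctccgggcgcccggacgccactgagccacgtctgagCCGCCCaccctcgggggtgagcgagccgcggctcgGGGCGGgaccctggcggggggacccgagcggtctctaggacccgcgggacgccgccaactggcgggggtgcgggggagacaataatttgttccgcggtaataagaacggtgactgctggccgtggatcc
ADAM10: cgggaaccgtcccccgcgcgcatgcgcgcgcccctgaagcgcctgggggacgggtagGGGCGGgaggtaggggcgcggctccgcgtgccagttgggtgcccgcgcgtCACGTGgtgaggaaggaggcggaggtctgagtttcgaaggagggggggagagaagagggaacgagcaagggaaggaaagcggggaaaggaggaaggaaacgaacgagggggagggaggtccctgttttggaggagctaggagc
Their positions are chr10:70672256-70672505 (plus strand), chr22:23772599-23772848 (plus strand), chr14:22836335-22836584 (plus strand), chr11:102780629-102780878 (minus strand), chr16:77435035-77435284 (minus strand), chr10:126388478-126388727 (minus strand) and chr15:58749708-58749957 (minus strand), in the order given. The GC box, GGGCGG or its reverse complement, is marked in all but MMP10, and a pair of overlapping matches in ADAMTS14 forms 1 run of capitals. The GC box was found in 23 of 26 members (88.5%), against 64.7% of the 10567 promoters of genes tested and 42.6% of all 35116. Members higher against fresh cells had it in 9 of 11 and members lower in 8 of 8. The TATA box TATAAA was found in MMP10 and ADAMTS10, which is 7.69% of members against 5.91% of genes tested. The E box CACGTG was found in ADAM10, ADAMTS6 and ADAMTS17 (11.5% against 8.55%). The AP-1 site TGAGTCA and the TEAD site ACATTCC were found in 0 of 26, beside 2.76% and 1.96% of genes tested. With shares this low and so few promoters, the 0 does not set the members apart from other genes. In the sequences shown, matches of different motifs did not overlap. The median GC content was 73.6% over the members and 64.4% over genes tested, with MMP10 lowest at 34.4%. A match is a run of letters and shows no binding.

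Single libraries were set side by side with no test, counting members at least 2-fold apart with 50 or more counts in the higher library. Between fresh 1 h DMSO and fresh 1 h medium only ADAM22 passed, of 40 members (1.23% of all genes), at 1.73 and 0.680 CPM. Between fresh 1 h medium and 0 h there were 0 (0.834% of all genes), and between frozen 1 h and 0 h DMSO also 0 (0.39%). Between frozen and fresh 1 h DMSO there were 2 (0.995%): TIMP4 at 0.612 and 1.27 CPM, and MMP10 at 1.14 and 0.455 CPM. Between frozen 0 h DMSO and fresh 0 h there were 0 (1%). SGI and SGC differed in 0 of 43 members (0.516%). SMC, held longer, differed from SGC in 0 (0.914%) and from SGI in 0 (1.12%). In these 3 pairs TIMP4 had too few counts to be compared. The 3 osmolyte solutions otherwise gave members within 2-fold of each other where counts allowed the comparison. The median absolute log2 ratio of members was 0.13 for SGI over SGC, 0.12 for SMC over SGC and 0.19 for SMC over SGI. Over all genes it was 0.11, 0.14 and 0.13. For frozen over fresh 1 h DMSO, members gave 0.237 and all genes 0.122, and for frozen 0 h DMSO over fresh 0 h 0.243 and 0.122. Fresh 1 h DMSO over medium gave 0.144 and 0.147, fresh 1 h medium over 0 h 0.162 and 0.140, and frozen 1 h over 0 h DMSO 0.099 and 0.109.

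Other genes of the same systems, from lists of related genes, are given for osmolyte-frozen against DMSO-frozen cells first. Over all genes tested, 13.1% were higher and 16.2% lower there, and whether any list differs from these shares was not tested. Of 12 plasminogen system genes tested 3 were higher and 1 lower. PLAU, the urokinase that starts plasmin formation, was 1.28-fold higher (log2 fold change 0.36 ± 0.08 SE, adjusted p = 0.00352) and 1.59-fold higher against fresh cells, while PLAT and PLAUR passed in no comparison. SERPINF1 was 1.48-fold higher. Of 13 other inhibitors 4 were higher and 4 lower. CD109, a surface relative of alpha-macroglobulin, was 2.06-fold lower, PAPLN 1.47-fold higher and CST3, cystatin C, 1.31-fold higher, and RECK, a membrane inhibitor of MMPs, passed in no comparison. Of 17 convertases and activators 2 were higher and 4 lower. PCOLCE2 was 1.48-fold lower, and FURIN, which activates membrane-type MMPs and many ADAMs, was also lower (log2 fold change -0.33 ± 0.08 SE, adjusted p = 0.00656).

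Of 28 other secreted or surface proteases 10 were higher and 8 lower. BMP1 was higher in all 3 osmolyte-frozen libraries than in any other (log2 fold change 0.65 ± 0.09 SE, adjusted p = 5.08e-05), and ACE was 2.26-fold, LNPEP 2.11-fold and DPP4 2.04-fold lower, all 3 surface peptidases. Of 5 ADAMTS-like glycoproteins, which lack the protease domain, 2 were higher and 2 lower: ADAMTSL1 was 2.00-fold and THSD4 1.60-fold lower and ADAMTSL5 1.74-fold higher. Of 26 matrix substrates 4 were higher and 5 lower, led by the proteoglycans DCN (2.87-fold higher) and LUM (2.59-fold higher) and by nidogen NID2 (2.08-fold lower). Against fresh cells the counts of higher and lower genes were 3 and 3, 3 and 4, 6 and 5, 11 and 9, 2 and 2, and 10 and 5 in the same order of lists. Of all genes, 18.6% were higher and 20.7% lower there. For DMSO-frozen against fresh cells the list counts were 0 and 0, 1 and 0, 0 and 0, 4 and 2, 0 and 0, and 1 and 0. The shares of all genes were 1.22% and 0.603% in that comparison.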

How the data were processed

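RNA sequencing was done on 8 libraries of H9-derived stromal cells. Per the submitters' processing notes, the tools were CASAVA 1.9, HTSeq and TopHat (listed there as 12.0.6), with the build hg19. Whether counting used strand is not given in the sources used here. Whole-number counts per gene were deposited by the authors and used unchanged. All were even, with 0 odd values, and no source says why. The authors also deposited RPKM values per kilobase of the length the table lists for each gene. These were used only to recover their library totals, which exceed the sums of counts. The sums were 66.2% to 70.4% of those totals in fresh, 72.1% and 73.0% in DMSO-frozen and 64.0% to 66.9% in osmolyte-frozen libraries. The part of this difference in the results was not tested. Of 23398 entries, 49 identifiers were listed more than once, and merging identical repeats left 23354 genes. No library repeated another: the smallest chi-square between any pair was 6.47 per degree of freedom on halved counts.

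Genes were filtered with filterByExpr by group and tested with edgeR 4.0.16 in R 4.3.3 (TMM scaling, robust glmQLFit, glmQLFTest, Benjamini-Hochberg adjustment at 0.05 over 15924 genes) in 1 fit of 3 groups: 3 fresh, 2 DMSO-frozen and 3 osmolyte-frozen libraries, with 5 residual degrees of freedom and a biological coefficient of variation of 0.0974. The method was tested on simulated data. Alternatives used DESeq2 1.42.0 or its size factors, library totals, no filter, halved counts, hold time as a covariate, 2 groups only, and each library left out. Levels are CPM on TMM-scaled library sizes. Each SE was obtained as the size of the log2 fold change over the root of its F. Single libraries were compared by log2 CPM ratios with a prior count of 2.

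Members past the threshold are named with their fold, and given in every library if called in 2 comparisons or changed 2-fold, as are all TIMPs, MMP1, MMP2, MMP3, MMP14, ADAM10 and ADAM17. Of each related list at most the 3 called genes with the largest change and 5 CPM or more in the higher group are named, and PLAU, PLAT, PLAUR, RECK, BMP1 and FURIN; some of these genes are not reported here. The members and lists were chosen with earlier results of these data known.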

Additional observations from a re-analysis of the deposited data

Results flagged for a closer look

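ADAMTS18 moved in opposite directions in the 2 kinds of freezing: its log2 fold change was -1.18 for osmolyte-frozen against DMSO-frozen cells, which tests the difference directly (edgeR adjusted p = 5.41e-06), with 0.56 for DMSO-frozen and -0.63 for osmolyte-frozen against the same fresh libraries. The call of the rise in DMSO-frozen cells was lost in 5 of 15 alternative fits, among them those without SMC, SGI or either DMSO-frozen library, with adjusted p up to 0.237.

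MMP3 lay under the minimum for members, yet its mean was 0.269 CPM in DMSO-frozen cells, above the 0.0301 CPM of fresh cells. It rests on 40 counts in all 8 libraries.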

How the results depend on the processing

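Every alternative kept the direction of each member called, in the comparison that called it. Members with no call were fitted too, but their directions were not followed across the alternatives. Members called for osmolyte-frozen against DMSO-frozen cells numbered 28, and 18 to 29 with each library left out, the lowest without the frozen 0 h DMSO library (DMSO-frozen replicate 2). All genes called there numbered 4670, and 2122 to 5254 with each library left out, the lowest again without that library. Library totals alone moved the median log2 fold change of all genes by 0.06. For DMSO-frozen against fresh cells 6 members were called, 10 by DESeq2 and 0 to 6 with each library left out, the lowest without the frozen 1 h DMSO library. All genes called there numbered 290, 494 by DESeq2 and 99 to 310 with each library left out, where the 2 DMSO-frozen libraries gave 99 (without 1 h) and 106 (without 0 h). For osmolyte-frozen against fresh cells the 31 members became 29 to 31, and the 6269 genes 5019 to 6100, with each library left out. Leaving out 1 DMSO-frozen library leaves that group with 1, assumed to vary like the others. Members under about 2 CPM (TIMP4, ADAM32, ADAMTS8, MMP10, MMP17, ADAM22, ADAM11) rest on few counts. No paired analysis was possible because the labels give no replicate numbers that groups share.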
